A study of Mus musculus with 10 samples.

Results

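Imprinted genes are a small class of mammalian genes that are expressed mainly from the maternal or mainly from the paternal chromosome. DNA methylation laid down in the egg or the sperm at imprinting control regions marks the parental copies, and many of the genes lie in clusters that share such a region, often together with a long noncoding RNA. Many of them act on growth before and after birth, and several are lowered in most tissues as an animal matures. A list of 35 imprinted genes was taken by gene symbol, of which 33 were measured by 93 probe sets of their own, among the 18193 genes that had at least 1 probe set annotated to a single symbol. Of the 33 genes, 21 are known as paternally expressed, 11 as maternally expressed and 1 (Gnas) as expressed from either allele depending on the transcript. They include 16 genes on chromosome 7 and 5 on chromosome 6. H19 shared its probe set with another symbol and Rtl1 had no probe set, so neither has a value here. The mice were inbred and arrays measure total mRNA, so the parental alleles could not be told apart. Whether each gene is imprinted in keratinocytes was therefore not examined.

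mRNA was measured with Affymetrix mouse arrays in primary keratinocytes of newborn (P1) FVB mice, in 10 samples. In 2 samples, A-C/EBP, a dominant negative that blocks DNA binding by the C/EBP family of transcription factors, was expressed in keratinocytes of transgenic mice by withdrawal of doxycycline before differentiation. In 2 samples, keratinocytes had received 5-azacytidine (5-AZA), an agent that reduces DNA methylation, and both treated groups were then differentiated for 2 days in raised calcium. The references were 4 samples of differentiated keratinocytes, given the same 2 days of calcium, and 2 samples of undifferentiated keratinocytes, kept in low calcium. According to the study's methods the keratinocytes without the transgene came from wild-type mice, so the transgenic background, the doxycycline exposure and A-C/EBP itself cannot be told apart. No source used here says that replicates were grown as separate cultures. The p-values therefore reflect the variation among these arrays alone, and that variation may be technical.

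The deposited values are on the log2 scale, 1 per probe set, and were averaged per gene. The median probe set lay between 4.64 and 4.78 in all 10 arrays, and replicates correlated at r = 0.99 or above across genes, which are not independent replicates. A-C/EBP replicate 2 stood apart in sex-linked transcripts. Its level of Xist, the noncoding RNA of the inactive X chromosome, was 9.93, against 5.84 to 8.27 in the other 9 arrays, and its level of the Y-linked Eif2s3y was 3.74, against 5.40 to 6.03. The arrays also differed in the mean level of their hybridization controls, with 11.34 in A-C/EBP replicate 2, 10.59 in 5-AZA replicate 2, and 9.03 to 10.37 in the others. Keratinocyte markers averaged 11.07 to 11.23 in A-C/EBP, 10.15 to 10.54 in 5-AZA, 10.34 to 10.66 in differentiated and 11.10 to 11.44 in undifferentiated arrays, with 0 of 13 genes below the array median in all arrays. Endothelial and adipocyte markers averaged 3.49 to 4.15 over the 10 arrays, and immune, muscle and hair follicle markers 4.45 to 5.48. Melanocyte markers averaged 7.57 to 8.27, and fibroblast markers, which are given with the results below, 5.33 to 6.39.

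In differentiation alone 15.8% of all genes passed the test (limma adjusted p under 0.05), and 3 of the 33 imprinted genes did. Of the 33 genes, 4 passed in at least 1 comparison, namely Mest, Peg3, Slc38a4 and Plagl1. How far each call depended on the processing is given below. All 4 genes are among the 21 known as paternally expressed. The sequences before their transcription starts are shown first because imprinted promoters are rich in the CG dinucleotides that DNA methyltransferases modify, and because C/EBP, CREB and AP-1 factors bind short motifs in promoters. They are from RefSeq on the mouse build GRCm38.p6, are printed 5′ to 3′ on the strand of the gene, and have CG dinucleotides in capitals. Mest has 3 annotated starts, 1 at its upstream end and 2 inside the annotated gene that lie 3 bases apart, and the upstream start and the first of the internal ones are shown. For Peg3 only the 96 bases between the annotated ends of Peg3 and of its divergent neighbour Usp29 are printed, and for Slc38a4 only the most upstream of its 3 starts.
Mest, upstream start, chr6:30733256-30733505, plus strand: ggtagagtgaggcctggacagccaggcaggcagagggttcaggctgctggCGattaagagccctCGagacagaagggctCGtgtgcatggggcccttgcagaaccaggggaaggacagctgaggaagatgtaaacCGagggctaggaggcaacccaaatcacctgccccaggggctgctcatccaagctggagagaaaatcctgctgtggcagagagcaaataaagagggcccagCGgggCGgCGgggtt
Mest, internal start, chr6:30737800-30738049, plus strand: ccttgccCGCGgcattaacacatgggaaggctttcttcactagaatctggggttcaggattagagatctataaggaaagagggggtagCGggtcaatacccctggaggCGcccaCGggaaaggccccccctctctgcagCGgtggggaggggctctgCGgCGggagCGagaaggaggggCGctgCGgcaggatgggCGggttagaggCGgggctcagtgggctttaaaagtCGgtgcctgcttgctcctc
Peg3, chr7:6730463-6730558, minus strand: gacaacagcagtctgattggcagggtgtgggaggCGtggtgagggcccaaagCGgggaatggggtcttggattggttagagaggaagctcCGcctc
Plagl1, chr10:13090582-13090831, plus strand: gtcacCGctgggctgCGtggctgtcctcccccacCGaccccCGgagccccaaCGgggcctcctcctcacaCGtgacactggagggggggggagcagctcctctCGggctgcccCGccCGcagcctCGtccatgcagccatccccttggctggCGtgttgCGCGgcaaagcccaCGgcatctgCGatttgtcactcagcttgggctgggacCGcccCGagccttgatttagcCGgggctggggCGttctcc
Slc38a4, chr15:97055957-97056206, minus strand: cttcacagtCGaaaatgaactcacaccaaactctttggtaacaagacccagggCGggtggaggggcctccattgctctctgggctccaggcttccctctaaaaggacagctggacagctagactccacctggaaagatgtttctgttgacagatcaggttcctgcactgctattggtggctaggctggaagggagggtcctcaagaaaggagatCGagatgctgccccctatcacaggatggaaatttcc

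The 250 bases before the start held 7 CG dinucleotides at the upstream and 14 at the internal start of Mest, 19 at Plagl1, 8 at Peg3 and 3 at the start of Slc38a4 shown. The median over 32851 promoters of the same length was 6, with quartiles of 2 and 16, and the median over 46 promoters of 29 of the 33 measured imprinted genes, some of which overlap, was 10. On both strands 4 motifs were searched. The cyclic AMP response element TGACGTCA, which CREB binds, occurred in 3 of the 46 promoters (Meg3, Peg3 and Zdbf2) and in 1.55% of all promoters. The match of Peg3 began at position −178 from its start, which is already past the start of Usp29 and outside the bases printed. The palindromic C/EBP motif TTGCGCAA occurred in 0 of the 46, where 0.164% of all promoters held it. Its form with a free centre, TTGCNNAA, which includes that motif, occurred in 3 (Magel2, Mest and Ndn), against 9.56% of all promoters, and in Mest it began at position −155 from the upstream start. The AP-1 motif TGACTCA occurred in 1 of the 46 (Magel2), against 4.46%. These are matches of letters within 250 bases, and binding was not analysed here.

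At the level of mRNA, 17 of the 33 imprinted genes lay above the median probe set of the array in all 10 arrays. Another 11 lay below it in all 10, namely Peg10, Peg12, Nnat, Sgce, Zim1, Nap1l5, Usp29, Ascl2, Mkrn3, Ppp1r9a and Rasgrf1, and were not shown to exceed background. The remaining 5 (Igf2, Dlk1, Kcnq1ot1, Magel2 and Airn) lay near the median, with 3 to 9 of their arrays below it. Over all 10 arrays the range of a gene had a median of 0.52 on the log2 scale for the imprinted genes and 0.57 for all genes. In 15 imprinted genes the range was under 0.5. It exceeded 1 in 6, with 4.12 for Mest, 3.47 for Slc38a4, 1.74 for Peg3, 1.23 for Cd81, 1.21 for Kcnq1ot1 and 1.10 for Igf2r.

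Mest, also known as Peg1, encodes a protein of the alpha/beta-hydrolase family and was named for its expression in embryonic mesoderm. It had the widest range of the 33 genes. Its level was 8.92 and 8.30 in the A-C/EBP arrays, 4.80 and 4.86 in the 5-AZA arrays, 6.15, 5.28, 5.49 and 5.51 in the differentiated arrays, and 7.20 and 6.89 in the undifferentiated arrays. The 4 conditions did not overlap, with A-C/EBP highest, then undifferentiated, then differentiated, and 5-AZA lowest, close to the median probe set of the array. Mest was 2.71-fold lower in differentiated than in undifferentiated keratinocytes, with a log2 difference of −1.44 (standard error 0.24, 95% interval −1.97 to −0.91, limma adjusted p = 0.0025). With A-C/EBP it was 7.99-fold higher than in differentiated keratinocytes, with a log2 difference of 3.00 (standard error 0.24, 95% interval 2.47 to 3.53, limma adjusted p = 0.000493). The A-C/EBP and undifferentiated arrays were not tested against each other. With 5-AZA both arrays lay below all 4 differentiated arrays, and the log2 difference of −0.78 did not pass the test (95% interval −1.31 to −0.25, limma adjusted p = 0.309). In differentiation 10 of 13 keratinocyte markers were lower, with a median log2 difference of −0.75 and 5 falling and 1 rising by limma. The list mixes markers of undifferentiated and of differentiating keratinocytes, so it does not measure keratinocyte content alone. Of the 4 with the smallest adjusted p, Col17a1, Trp63 and Itga6 had −2.17, −1.42 and −1.61, and Ivl had 0.80. With A-C/EBP 0 of 13 markers were below their level in differentiated keratinocytes, with a median of 0.51 (0.38 without A-C/EBP replicate 2) and 0 passing. The part of these markers in the level of Mest was not tested. A single probe set measured Mest, so no second probe set bears on these values. When A-C/EBP replicate 2 was left out the difference from differentiated keratinocytes was 3.31, and it was 2.69 when replicate 1 was left out.

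**Figure D1:**
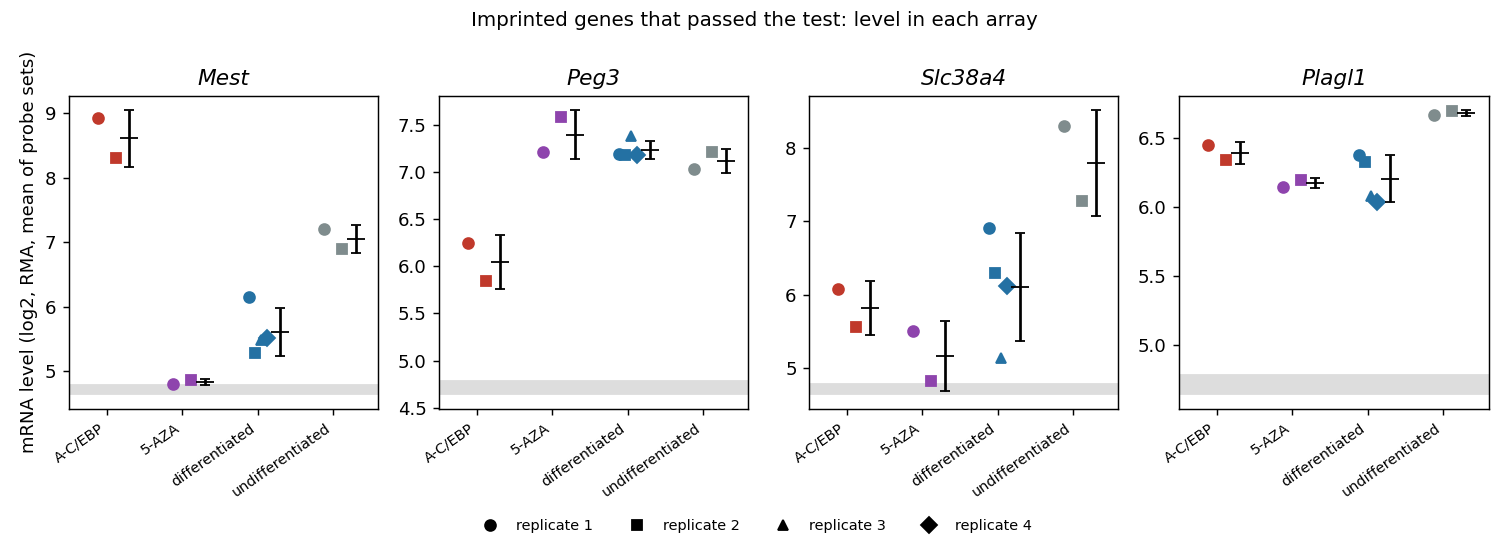
Level of Mest, Peg3, Slc38a4 and Plagl1 (log2, RMA, mean of the gene's probe sets) in each of 10 arrays, by condition, with the mean and SD as black bars and the range of the array medians, 4.64 to 4.78, as a grey band. Mest was at 8.92 and 8.30 with A-C/EBP against 5.28 to 6.15 in differentiated arrays, Peg3 at 6.25 and 5.84 against 7.18 to 7.38, and Slc38a4 and Plagl1 were highest in the undifferentiated arrays.

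Peg3, a zinc finger protein of the Krüppel type, had another pattern. Its level was 6.25 and 5.84 in the A-C/EBP arrays, 7.21 and 7.58 in the 5-AZA arrays, 7.19, 7.18, 7.38 and 7.18 in the differentiated arrays, and 7.03 and 7.21 in the undifferentiated arrays. The A-C/EBP arrays lay below all others, and the remaining conditions overlapped. With A-C/EBP, Peg3 was 2.28-fold lower than in differentiated keratinocytes (log2 difference −1.19, standard error 0.15, 95% interval −1.51 to −0.86, limma adjusted p = 0.00493). Peg3 did not pass the test in differentiation, with a log2 difference of 0.11 (95% interval −0.21 to 0.44), or with 5-AZA, with 0.16 (95% interval −0.16 to 0.49). The mean over probe sets understates the bright ones. Of its 5 probe sets 3 were bright, and with A-C/EBP they differed by −1.58, −2.20 and −1.93 (limma adjusted p over probe sets 0.0142, 0.00638 and 0.00363), while the other 2 lay between 2.66 and 3.15 in all arrays and differed by −0.11 each. The brightest read 9.38 and 9.14 with A-C/EBP, 10.94 and 11.63 with 5-AZA, 10.64 to 10.95 in differentiated arrays and 10.52 and 11.12 in undifferentiated arrays. Without A-C/EBP replicate 2, the array that stood apart in sex-linked transcripts, a single A-C/EBP array is left. The log2 difference of Peg3 was then −0.98, against −1.19 with both arrays, and that single array cannot settle the call.

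Markers of fibroblasts lay lower with A-C/EBP too, without passing the test. Their mean level was 5.33 to 5.75 in A-C/EBP, 5.94 to 6.39 in 5-AZA, 5.56 to 6.19 in differentiated and 5.45 to 5.99 in undifferentiated arrays, and 3 of the 20 measured lay below the array median in all arrays. With A-C/EBP, 15 of the 20 were below their level in differentiated keratinocytes, with a median log2 difference of −0.39, and 0 passed limma. Without A-C/EBP replicate 2 these were 18 of 20 and −0.40. In whole cultures fewer cells of a type and less mRNA per cell cannot be told apart, and the part of fibroblasts in the level of Peg3 was not tested. The neighbours of Peg3 in its cluster, the ubiquitin protease Usp29 and the maternally expressed zinc finger gene Zim1, were below the array median throughout, with log2 differences of −0.15 and 0.03 with A-C/EBP.

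Slc38a4, a transporter of neutral amino acids, varied widely between replicates. Its level was 6.08 and 5.56 in the A-C/EBP arrays, 5.50 and 4.83 in the 5-AZA arrays, 6.90, 6.29, 5.13 and 6.11 in the differentiated arrays, and 8.30 and 7.28 in the undifferentiated arrays. Only the undifferentiated arrays stood clear of the rest, and in each condition the array numbered 1 read higher than the array numbered 2. In differentiated keratinocytes it was 3.2-fold lower than in undifferentiated ones (log2 difference −1.68, standard error 0.44, 95% interval −2.67 to −0.69, limma adjusted p = 0.0275). Its probe sets differed by −2.16 and −1.20, and only the dimmer one passed (limma adjusted p over probe sets 0.0192 and 0.124). Leaving out undifferentiated replicate 1, which leaves a single undifferentiated array, moved the log2 difference to −1.17. Leaving out differentiated replicate 4 left it at −1.68 (limma adjusted p = 0.0567). Slc38a4 also did not pass an ordinary t-test per gene in differentiation, before or after adjustment. In the main fit its log2 differences from differentiated keratinocytes were −0.29 with A-C/EBP (95% interval −1.28 to 0.70) and −0.94 with 5-AZA (95% interval −1.93 to 0.05). Neither passed. With the replicate number as a block they were −0.78 and −1.43, and both passed. No source used here says that the numbers pair the samples.

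Plagl1, a zinc finger transcription factor also called Zac1, is known to restrain cell proliferation and to act on other imprinted genes. Its level was 6.45 and 6.34 in the A-C/EBP arrays, 6.15 and 6.20 in the 5-AZA arrays, 6.38, 6.33, 6.08 and 6.04 in the differentiated arrays, and 6.67 and 6.70 in the undifferentiated arrays. The undifferentiated arrays lay above all others by a small margin. The log2 difference of differentiated from undifferentiated keratinocytes was −0.48 (standard error 0.12, 95% interval −0.74 to −0.22, limma adjusted p = 0.0193). It rested on the brightest of 3 probe sets, which differed by −0.92 (limma adjusted p over probe sets 0.0154), where another differed by −0.54 and did not pass (limma adjusted p 0.0996) and the dimmest by 0.03. The bright probe set may match several transcripts according to its identifier. With such probe sets left out the difference of Plagl1 was 0.03. Only the dimmest probe set then remained, which lay below the array median in all 10 arrays. With A-C/EBP and with 5-AZA, Plagl1 differed from differentiated keratinocytes by 0.19 and −0.03, and neither passed.

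**Figure D2:**
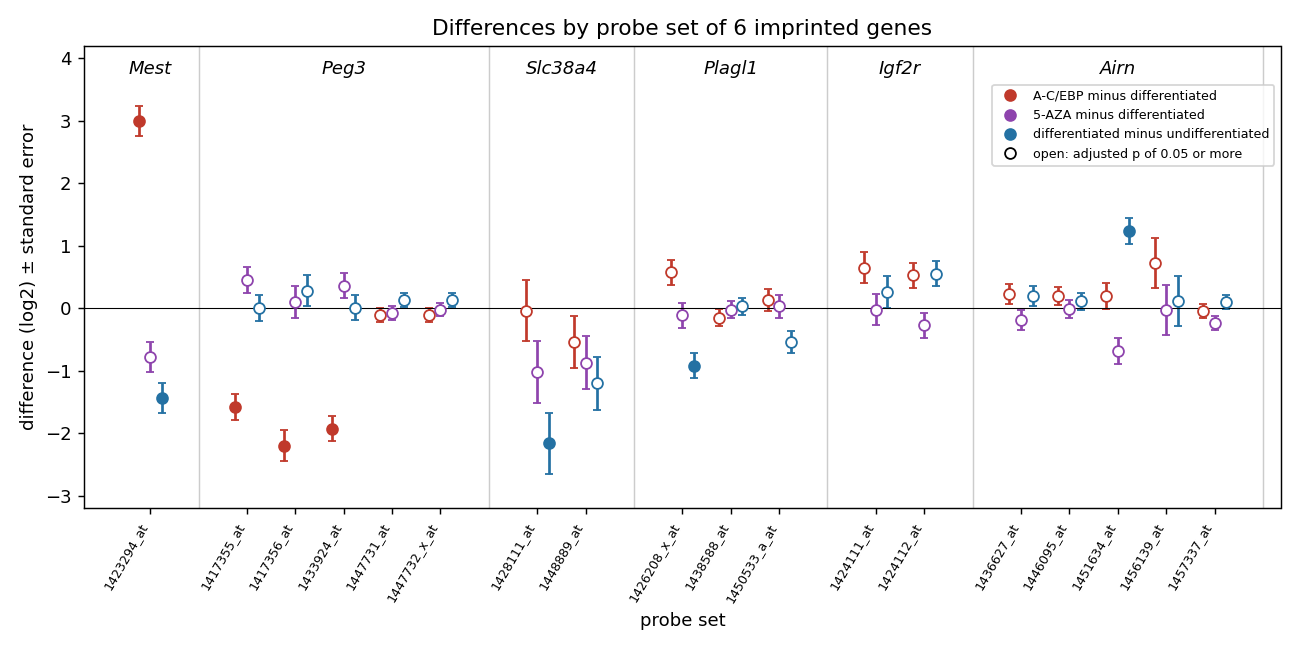
Log2 difference with its standard error for each probe set of 6 imprinted genes, in A-C/EBP minus differentiated, 5-AZA minus differentiated and differentiated minus undifferentiated keratinocytes, with filled points where the limma adjusted p over probe sets was under 0.05. The 3 bright probe sets of Peg3 differed by −2.20 to −1.58 with A-C/EBP, and single probe sets of Slc38a4, Plagl1 and Airn passed in differentiation.

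For differentiation as a whole, 3 of the 33 imprinted genes fell (Mest, Slc38a4 and Plagl1) and 0 rose by limma, where 9.14% of all genes fell and 6.64% rose, 15.8% in all. At an unadjusted p under 0.05 there were 6 imprinted genes (25.8% of all genes). The median log2 difference was −0.06 over the 33 genes and −0.01 over all genes. Means differed by more than 0.5, the threshold of the study's methods, in 2 genes, Mest and Slc38a4, both lower, against 16.1% of all genes (7.23% higher and 8.87% lower). The arrays of both conditions did not overlap in 7, where 34.1% of all genes had no overlap. The 3 genes that fell are 9.09% of the 33, which is close to the share of all genes that fell.

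The Igf2r/Airn cluster on chromosome 17 was looked at after its values were seen. Igf2r encodes the receptor that carries IGF2 to the lysosome and is maternally expressed in mice, and it had 8.91 and 8.90 in A-C/EBP, 8.33 and 8.01 in 5-AZA, 7.81 to 8.73 in differentiated and 7.97 and 7.85 in undifferentiated arrays, with a log2 difference of 0.59 with A-C/EBP that did not pass (limma adjusted p = 0.24). Airn, the paternally expressed noncoding RNA that runs through Igf2r on the opposite strand, did not pass as a gene, although 1 of its 5 probe sets was higher in differentiated arrays, at 6.40 to 6.95, than in undifferentiated arrays, at 5.48 and 5.25 (log2 difference 1.24, standard error 0.21, limma adjusted p over probe sets 0.0041). The genes overlap and 1 probe set annotated to both symbols was not used. In the Angelman region 1 of 6 probe sets of Ube3a, a ubiquitin ligase, was likewise lower in differentiation by 0.42 (limma adjusted p over probe sets 0.0377). Kcnq1ot1, the noncoding RNA of the cluster that holds Cdkn1c and Phlda2, ranged over arrays more than over conditions, with 4.48, 3.98, 4.36 and 4.92 in the arrays numbered 2 of A-C/EBP, 5-AZA, differentiated and undifferentiated keratinocytes and 3.71 to 3.88 in the other 6. Those 4 arrays also had the highest hybridization controls, 10.07 to 11.34 against 9.03 to 9.99, and the part of that in Kcnq1ot1 was not tested.

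**Figure D3:**
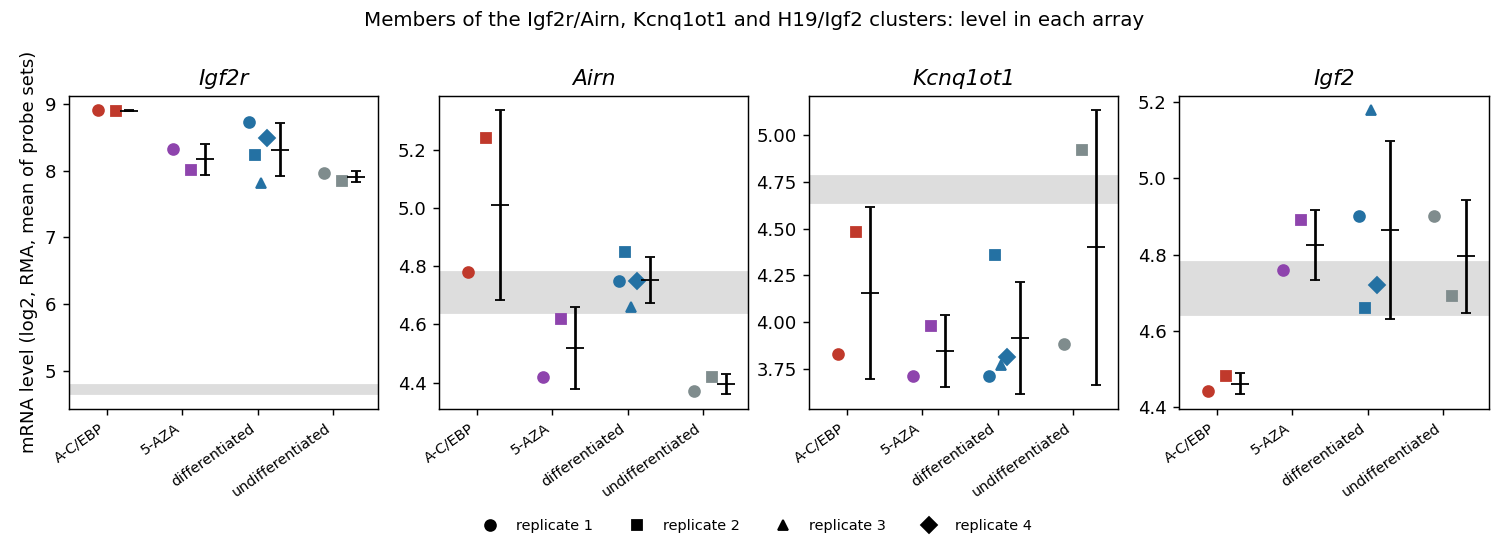
Level of Igf2r, Airn, Kcnq1ot1 and Igf2 (log2, RMA, mean of the gene's probe sets) in each array, with the mean and SD as black bars and the range of array medians as a grey band. Kcnq1ot1 was higher in replicate 2 of each condition, and Igf2r had 8.91 and 8.90 with A-C/EBP, above the 7.81 to 8.73 of differentiated arrays.

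With A-C/EBP, 1 of the 33 imprinted genes rose (Mest) and 1 fell (Peg3) relative to differentiated keratinocytes, where 1.49% of all genes rose and 0.572% fell, 2.06% in all. At an unadjusted p under 0.05 there were 5 imprinted genes (13.6% of all genes). The median log2 difference was 0.02 over the 33 genes and 0.01 over all genes, and 15 of the 33 were below 0. Means differed by more than 0.5 in 3 genes (Mest and Igf2r higher, Peg3 lower), against 6.74% of all genes (3.71% higher and 3.03% lower), and the arrays did not overlap in 8, against 21.4%. Without A-C/EBP replicate 2, which leaves a single A-C/EBP array, the differences were 3.31 for Mest and −0.98 for Peg3. Igf2, the fetal growth factor, had 4.44 and 4.48 with A-C/EBP, below the 4.66 to 5.18 of differentiated arrays, and its difference of −0.40 did not pass (limma adjusted p = 0.228). The inhibitors of growth Cdkn1c, Grb10 and Phlda2 differed by −0.20 to −0.10, and none passed. The 95% interval lay within 1 on the log2 scale of no difference for 29 of the 33 genes, the exceptions being Mest, Peg3, Igf2r and Slc38a4, which is 87.9% of them against 94.0% of all genes.

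With 5-AZA, which acts on the DNA methylation that imprinting depends on, 0 of the 33 imprinted genes passed limma, where 0.286% of all genes passed. The mRNA arrays do not measure DNA methylation, so how far it fell in these samples is not known here. At an unadjusted p under 0.05 limma gave 5 of them (Mest lower, Meg3, Ndn, Nap1l5 and Slc22a18 higher), against 9.1% of all genes. An ordinary t-test per gene gave 2 (Sgce and Nap1l5) unadjusted and 0 after adjustment. The median log2 difference was −0.00 over the 33 genes and 0.04 over all genes. Means differed by more than 0.5 in Mest and Slc38a4, both lower, against 3.98% of all genes (1.89% higher and 2.09% lower). No imprinted gene was higher by that much in the mean over its probe sets. Single probe sets differed by 0.03 to 0.63 in Meg3 and by −0.05 to 0.50 in Ndn. None of these passed limma over probe sets. Arrays did not overlap in 10 genes, 7 higher and 3 lower, against 16.4% of all genes (11.2% higher and 5.15% lower). Meg3, the maternal noncoding RNA of the Dlk1 cluster, had a log2 difference of 0.29 (limma adjusted p = 0.461), Ndn, a MAGE family protein of the Prader-Willi region, 0.35 (limma adjusted p = 0.435) and Slc22a18, a transporter of the Kcnq1ot1 cluster, 0.41 (limma adjusted p = 0.321). Fibroblast markers were above their level in differentiated keratinocytes for 17 of 20 genes, with a median of 0.32 and 0 passing, and 0 of 8 melanocyte markers were below theirs, with a median of 0.38 and 0 passing. The part of either in these values was not tested. The 95% interval lay within 1 of no difference for 31 of the 33 genes, all but Mest and Slc38a4 (93.9%, against 95.7% of all genes), and within 0.5 for 23 (69.7%, against 68.3%). The 11 dim genes, which would have to gain expression to be seen, differed by −0.08 to 0.24.

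**Figure D4:**
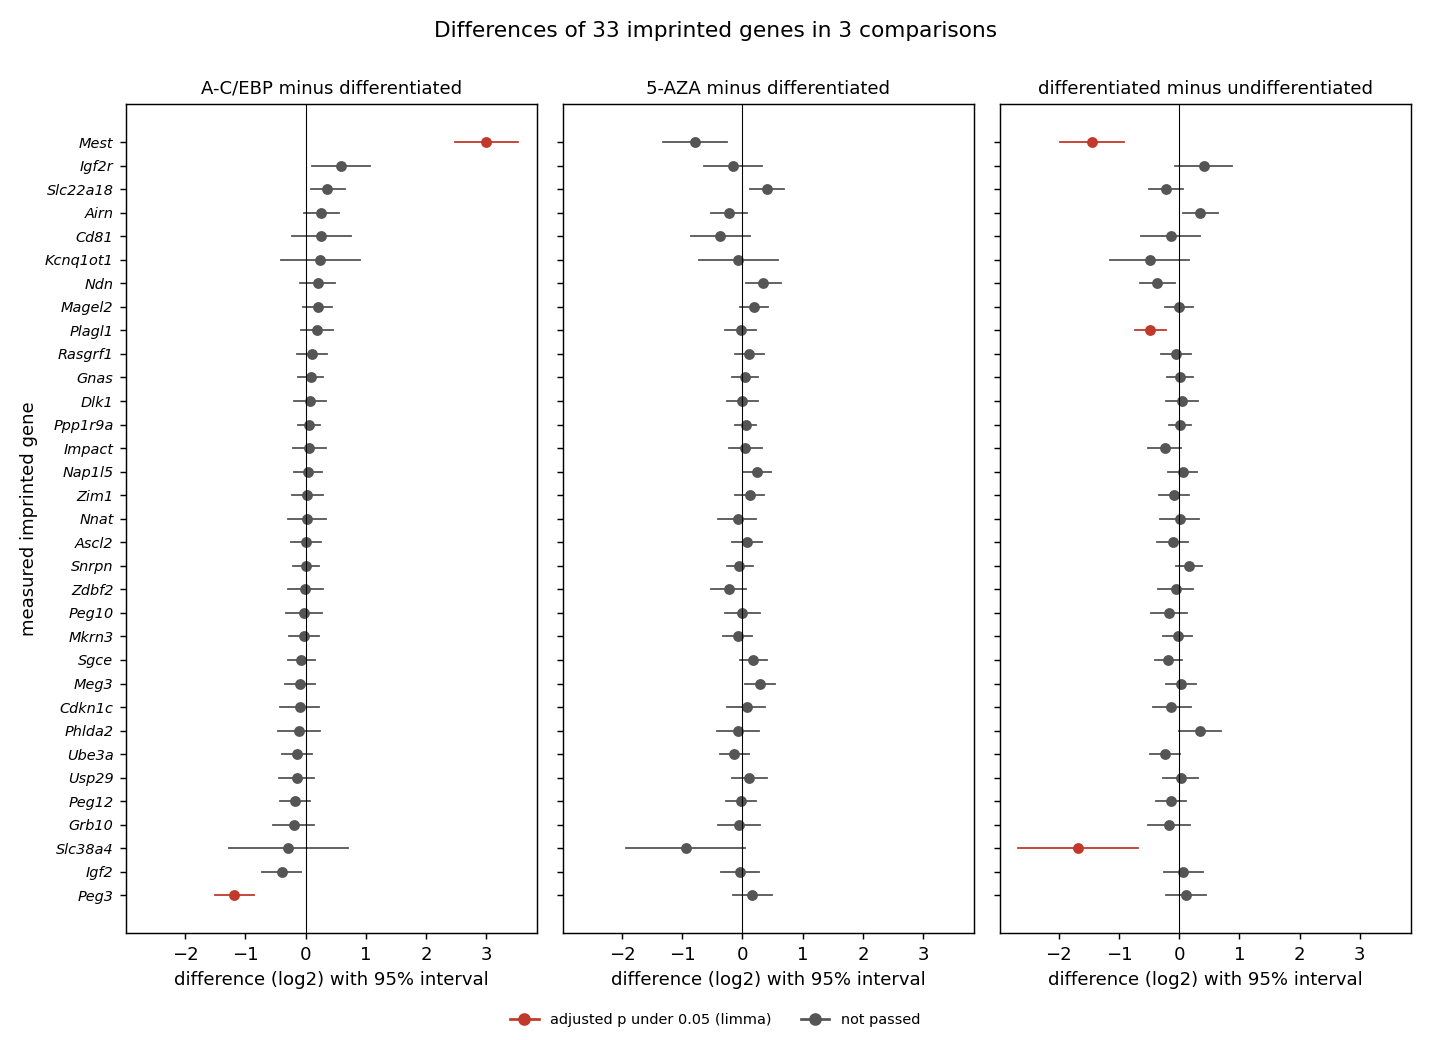
Log2 difference with its 95% interval for each of the 33 measured imprinted genes in A-C/EBP minus differentiated, 5-AZA minus differentiated and differentiated minus undifferentiated keratinocytes, in the order of the first, with genes of limma adjusted p under 0.05 in red. Mest and Peg3 passed with A-C/EBP, none with 5-AZA, and Mest, Plagl1 and Slc38a4 in differentiation.

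The 4 differentiated arrays serve as the reference for both treatments, so A-C/EBP and 5-AZA were also compared directly. Mest was higher with A-C/EBP than with 5-AZA by 3.78 (standard error 0.28, limma adjusted p = 0.000347), which is 13.7-fold, and Peg3 was lower by 1.35 on the log2 scale (standard error 0.17, limma adjusted p = 0.00371). These 2 were the only imprinted genes that passed, against 3.19% of all genes (2.06% higher and 1.13% lower). Means differed by more than 0.5 in 4 genes upwards (Mest, Igf2r, Slc38a4 and Cd81), against 5.34% of all genes, and in Peg3 downwards, against 4.68%. At an unadjusted p under 0.05 there were 6 imprinted genes, against 15.4% of all genes. Without A-C/EBP replicate 2, which leaves a single A-C/EBP array, the values were 4.09 for Mest and −1.14 for Peg3. The difference of Peg3 did not pass with these 2 conditions alone in the fit (limma adjusted p = 0.063). Fibroblast markers were lower with A-C/EBP than with 5-AZA for 17 of 20 genes, with a median of −0.57 and 1 passing limma, and keratinocyte markers were lower for 1 of 13, with a median of 0.49 and 1 passing. Their part in Mest and Peg3 was not tested.

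Of a list of 50 further imprinted genes, 40 were measured. In differentiation 4 rose and 1 fell, where 6.64% of all genes rose and 9.14% fell. Gab1, an adaptor of receptor tyrosine kinases, rose by 0.86 and Cobl, a nucleator of actin filaments, by 0.75, and Ampd3, an AMP deaminase, fell by 1.95 on the log2 scale (limma adjusted p = 0.000182). With A-C/EBP 4 rose and 1 fell, against 1.49% and 0.572% of all genes, with Ampd3 higher by 1.24 (limma adjusted p = 0.0152), Phactr2, a regulator of phosphatase and actin, by 0.81 (limma adjusted p = 0.0378) and Trappc9, a subunit of a vesicle tethering complex, by 0.40 (limma adjusted p = 0.0361), while Mcts2 fell by 0.62. Leaving out A-C/EBP replicate 2 leaves a single A-C/EBP array, which cannot settle these calls. The differences were then 1.12 for Ampd3, 1.05 for Phactr2, 0.42 for Trappc9 and −0.55 for Mcts2. With 5-AZA 0 of the 40 passed limma, and Ampd3 and Phactr2 had −0.20 and −0.03. Their medians were 0.03, 0.04 and 0.04 in the 3 comparisons, beside −0.01, 0.01 and 0.04 over all genes.

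Of 22 measured genes that maintain imprints and DNA methylation, 8 fell and 0 rose in differentiation, where 9.14% of all genes fell and 6.64% rose, with a median log2 difference of −0.38, beside −0.01 over all genes. Uhrf1, which brings the maintenance methyltransferase to replicated DNA, fell by 2.60 on the log2 scale (limma adjusted p = 0.00223), the de novo methyltransferase Dnmt3b by 0.73 (limma adjusted p = 0.00241), and Trim28, the corepressor that keeps imprints through zinc finger proteins, by 0.94 (limma adjusted p = 0.00265). The maintenance methyltransferase itself, Dnmt1, was named after its values were seen, and fell by 1.31 (limma adjusted p = 0.0199). With A-C/EBP 1 rose, the other de novo methyltransferase Dnmt3a, by 0.74 (limma adjusted p = 0.0386). Its difference was 0.70 without A-C/EBP replicate 2, which leaves a single A-C/EBP array and cannot settle the call. With 5-AZA 0 passed, with Dnmt1 at −0.34 and Uhrf1 at −0.24. Of 11 measured germline genes that DNA methylation is known to silence, 10 were below the array median in all arrays and 0 passed in any comparison, with a median of 0.03 with 5-AZA. Of 13 measured genes of the insulin-like growth factor axis, Irs2, a docking protein of the receptor, rose by 0.77 in differentiation (limma adjusted p = 0.0136) and the mRNA-binding proteins Igf2bp1 and Igf2bp3 fell by 0.60 and 0.63 on the log2 scale, while 0 passed with A-C/EBP or 5-AZA.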

How the data were processed

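mRNA levels were measured on Affymetrix mouse genome arrays, 1 per sample, in 2 A-C/EBP, 2 5-AZA, 4 differentiated and 2 undifferentiated samples. The authors deposited normalized log2 values per probe set, made, per the submitters' processing notes, in Affymetrix Expression Console by RMA (no version stated), and these were used unchanged. RMA gives no detection calls, so dim means below the array median. Of 45101 probe sets, 34945 non-control ones with 1 gene symbol were averaged to 18193 genes, and 34741 of them matched the RefSeq table. A single limma 3.58.1 fit (R 4.3.3) over 10 arrays had a mean per condition, with Benjamini-Hochberg adjustment over all genes and a threshold of 0.05. The script was tested on simulated data. Precision is limited by how few arrays there are.

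The members and lists were chosen with earlier results of these data known. Members are named with all values where they passed in any comparison or where means differed by more than 1, and others have at most a sentence each within a topic. Of other lists, up to 4 genes with the smallest adjusted p in a comparison were eligible, and Dnmt1 was named outside that rule. Replicate numbers of A-C/EBP come from the titles, since the description gives both arrays the same number. The alternatives tried were the brightest probe set, dropping probe sets that match several transcripts, quantile normalization, median centring, a filter on the dimmest 40% of genes, a variance trend with intensity, a replicate block, the methods' t-test, a fit over probe sets, fewer conditions and leaving out each array. The methods' t-test here means an ordinary t-test per gene. The study's methods name a t-test but describe no test for the mRNA of single genes. A-Fos, chromatin and methylated DNA data are not analysed here.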

Additional observations from a re-analysis of the deposited data

Results flagged for a closer look

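In 4 of the 33 imprinted genes a single differentiated array lay far from the other 3, measured as its gap to the nearest array over the range of the 4. Chance flags about 1 in 20 such groups. For Peg3, differentiated replicate 3 read 7.38 against 7.18 to 7.19 in the others, a ratio of 0.928. For Sgce, a dim gene, replicate 1 read 4.06 against 4.13 to 4.14 (ratio 0.901), and for Ndn replicate 1 read 6.23 against 5.86 to 5.90 (ratio 0.897). For Kcnq1ot1, replicate 2 read 4.36 against 3.71 to 3.81 (ratio 0.844).

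The effects of A-C/EBP and 5-AZA, each against differentiated keratinocytes, differed in 2 imprinted genes by limma. The difference was 3.78 on the log2 scale for Mest, with 2 of 2 A-C/EBP arrays above both 5-AZA arrays, and −1.35 for Peg3, with 2 of 2 below.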

How the results depend on the processing

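The count of imprinted genes that passed in differentiation, 3, became 0 with the methods' t-test after adjustment and 5 in the fit over probe sets, and ran from 1 (without undifferentiated replicate 1) to 4 with 1 array left out. With A-C/EBP against differentiated, 2 became 0 with the adjusted t-test and 1 to 2 with 1 array left out, the 1 being without A-C/EBP replicate 2. With 5-AZA, 0 became 2 with the unadjusted t-test and stayed 0 with any array left out. For A-C/EBP against 5-AZA, 2 became 1 with only these conditions in the fit, 4 with the unadjusted and 0 with the adjusted t-test, and 2 to 3 with 1 array left out. Means differing by more than 0.5 by the brightest probe set numbered 8 in differentiation, 6 for A-C/EBP and 4 for 5-AZA, against 2, 3 and 2, and 2 to 4 (most without differentiated replicate 2), 3 to 5 (most without A-C/EBP replicate 1) and 2 to 3 with 1 array left out.

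Mest kept its calls under all alternatives but the adjusted t-test. Peg3 with 5-AZA reversed to −0.02 without 5-AZA replicate 2 (range −0.02 to 0.35 over omitted arrays). With probe sets that match several transcripts left out, Plagl1 reversed to 0.03 in differentiation, −0.15 for A-C/EBP and −0.13 for A-C/EBP against 5-AZA, which leaves only its dimmest probe set, and its value with 5-AZA ran from −0.09 to 0.03 over omitted arrays. Plagl1 in differentiation also lost its call with quantile normalization (−0.43) and without either undifferentiated array, and Slc38a4 with the brightest probe set (−1.20). Leaving out an A-C/EBP, 5-AZA or undifferentiated array leaves a single array in that condition, so calls from those fits are less precise. The cause was not tested for any of these changes.

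Only 2 replicate numbers are shared between conditions. Deviations of arrays with the same number correlated at 0.093 in 1 pair of arrays and 0.23 to 0.43 in the other 11, all positive. In conditions of 2 arrays the deviations mirror each other, so these pairs are not independent. No source used here says that the numbers pair the samples, and the main fit left them out. What arrays of the same number share was not tested. With the replicate number as a block, 4 imprinted genes passed with A-C/EBP, 2 with 5-AZA and 5 for A-C/EBP against 5-AZA, and 4 means differed by more than 0.5 in differentiation. Slc38a4 then passed in the 3 comparisons with a treatment, at −0.78, −1.43 and 0.65, and Plagl1 in differentiation, at −0.33, did not.

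RMA values carry no background level, so the signal over background of dim genes is unknown.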
